A study of Rattus norvegicus with 9 samples.

Results

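The mitochondrial ribosomal protein genes described here were the genes with a non-control array probe whose gene name in the scanner output starts with Mrpl or Mrps and a digit. This rule matched 81 of 41012 probes, which stand for 68 of the 22117 genes tested. Of the 68 genes, 44 encode proteins of the large ribosomal subunit and 23 proteins of the small subunit, with Mrps30 and Mrps18a counted as large because their proteins sit there. The remaining gene, Mrps36, is now named Kgd4 and encodes a protein of the 2-oxoglutarate dehydrogenase complex, so the name holds for it only by history. A probe was kept if, in 1 group or more, each array had it well above background, which 80 of the 81 probes met, with all 68 genes among them. A single probe represented 56 genes and several probes represented 12, and each gene's values come from its brightest probe unless stated otherwise.

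The cells were smooth muscle cells of the pulmonary artery, which contract to set the width of the vessel, from male SD rats in generation 4. The 3 groups were normoxia at 37 °C with 5% CO2, hypoxia with 1% O2 and 5% CO2, and hypoxia with quercetin, a plant flavonol, with 3 arrays each. After 24 h without serum, cells had quercetin or 0.1% DMSO for 24 h in medium with 10% serum. The labels do not say which untreated group had the DMSO, nor whether replicates are separate cultures. The p-values thus cover the spread among these samples alone, and that may be technical.

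A mitochondrial ribosome translates the few messages of the mitochondrial genome, which encode core subunits of the respiratory chain and the ATP synthase. Its RNAs are made inside the organelle, while all of its proteins are encoded in the nucleus, made in the cytosol and imported. Part of these proteins have counterparts in bacterial ribosomes and part arose in the mitochondrial lineage. Promoters of nuclear genes for mitochondrial proteins are known for sites of NRF1, of the ETS factor GABP and of YY1.

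Sequences of the starts of these genes are shown because the choice of members did not use them. RefSeq promoter windows of assembly GRCr8, from 250 bases before to 50 after the transcription start, were matched by symbol for 55 of the 68 genes. The YY1 word AAGATGGC was present on either strand in 13 of the 55 windows (23.6%), against 3.44% of 27457 windows in the table and 5.34% of the 9660 windows of genes tested. The NRF1 word CGCATGCG was present in 6 (10.9%), against 1.81% of all windows and 3.55% of those of genes tested. The ETS word CCGGAAGT was present in 8 (14.5%), against 4.01% and 8.08%. The stretches below are written 5′ to 3′ on the strand of the gene, with the NRF1 word in capitals, for the 6 genes that hold it.
Mrpl10, chr10:82522379-82522408, plus strand: acccagctctaCGCATGCGgatagctgctt
Mrpl17, chr1:169575735-169575764, minus strand: aggctctgatgCGCATGCGcaagcacccct
Mrpl17, chr1:169575697-169575726, minus strand: ccgagctactgCGCATGCGtcctctggaaa
Mrpl22, chr10:42845871-42845900, plus strand: gcctcggactgCGCATGCGtgcaggcagcc
Mrpl32, chr17:55260579-55260608, plus strand: tttgacctgtgCGCATGCGcagggaacctg
Mrpl44, chr9:88554908-88554937, plus strand: agaagcacttgCGCATGCGcactatgctag
Mrps18b, chr20:2842976-2843005, plus strand: tccttgtccggCGCATGCGcagtcgttctt
These words start at positions -131 to -16 relative to the transcription start. The YY1 word is in capitals in the next stretches, from genes that fell, rose or did not pass in hypoxia.
Mrpl49, chr1:212779293-212779322, minus strand: ttggaggagcaAAGATGGCagcaaatgtat
Mrps10, chr9:21122405-21122434, minus strand: gtcagggcaccAAGATGGCggcgcgcgcag
Mrpl46, chr1:142116988-142117017, minus strand: gggaagacggaAAGATGGCggcgcccatag
Mrpl50, chr5:68668043-68668072, minus strand: ggagcttgtcgAAGATGGCggcgctgtgtg
Mrps30, chr2:52195868-52195897, minus strand: cgcggaggacaAAGATGGCggctgccaggt
Mrps27, chr2:32474222-32474251, plus strand: tggtacgctccAAGATGGCggcccccatgg
In these 6 of the 13 genes the word starts 17 to 31 bases into the transcript. In the genes not shown it starts at positions -220 (Mrpl32) to 29 (Mrps18b). A match is a run of letters and not a shown site.

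On each array, log2 signals were set relative to that array's 75th percentile, and a change is the log2 difference between group means ± its standard error (SE) with 3 arrays per group. Adjusted p comes from limma, by Benjamini-Hochberg over all 22117 genes, and a gene passed at an adjusted p under 0.05. The share of probes well above background was 53.0% to 74.3% per array, and arrays of 1 group correlated at 0.986 to 0.994 over all genes. Normoxia replicate 2 stood apart: all 8 hypoxia marker genes measured (Bnip3, Car9, Egln3, Ldha, Pdk1, Pgk1, Slc2a1 and Vegfa) were lowest there, by 0.89 to 2.00 relative to normoxia replicates 1 and 3 averaged. Of these markers, 7 of 8 were higher in hypoxia and none lower. Normoxia replicates 1 and 2 shared a slide, normoxia replicate 3 shared a slide with the hypoxia arrays, and the quercetin arrays had a slide of their own. Slide and quercetin therefore cannot be told apart. Normoxia replicates 1 and 2 were also scanned on a different day from all other arrays.

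Marker genes of the cell types also moved between the groups. Smooth muscle markers were measured for 9 of 10 genes, all but Acta2, and 7 of the 9 were higher in hypoxia. The log2 of their summed signals, which the brightest markers dominate, was 9.99 to 10.34 in the normoxia group, 10.89 to 11.03 under hypoxia and 10.06 to 10.22 where quercetin was added. Fibroblast markers (6 of 6) gave 6.93 to 7.81, 7.28 to 7.33 and 5.60 to 5.95 in that order, set mostly by S100a4. Dcn, Lum and Fap fell in hypoxia, by 4.24, 3.62 and 1.45 (adjusted p = 1e-04, 1.8e-05 and 1.8e-05). Dcn was well above background on only 2 of 3 hypoxia arrays. For the other fibroblast markers, Pdgfra, S100a4 and Col14a1, the normoxia and hypoxia arrays overlapped. Epithelial markers (3 of 6, without Epcam, Cdh1 and Krt19 above background) gave 1.88 to 2.44, 5.30 to 5.55 and 2.88 to 3.16. Leukocyte markers (5 of 7, without Cd3e and Cd79a) gave 2.04 to 2.48, 1.81 to 1.95 and 1.38 to 1.42, following Cd14. Lyz2 instead rose by 4.10 in hypoxia (adjusted p = 3.4e-05) and was 2.45 above normoxia with quercetin, where Cd68 was 1.23 above. Endothelial markers (2 of 6, without Pecam1, Vwf, Tie1 and Tek) gave -3.38 to -3.15, -2.89 to -2.64 and -4.05 to -3.17. Their part in the changes below was not tested. In such bulk samples, fewer cells of a type and less RNA per cell cannot be told apart.

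In hypoxia the mitochondrial ribosomal protein genes did not move as a block. Against normoxia, 31 of the 68 genes fell, 21 rose and 16 did not pass. The falls reached 2.88 on the log2 scale (Mrpl49) and the rises 1.14 (Mrpl1). The background was broad: of all genes tested 64.2% passed, 35.3% higher and 28.9% lower. Arrays of the 2 groups did not overlap for 56 of the 68 genes, against 71.6% of all genes. A change of at least 2-fold that passed was seen for 9 of the 68, against 24.1% of all genes. The median change of the 68 was -0.14, against 0.10 for all genes. Scaling the arrays on spike-in probes instead gave 3 higher and 45 lower, where 12.1% of all genes were higher and 48.9% lower and the median of all genes shifted from 0.10 to -0.40. The median of the 68 genes minus that of all genes was -0.24 in both scalings and -0.07 with slide as a block. With hypoxia set against normoxia replicate 3 alone, on the same slide, the split was 22 higher and 16 lower, against 22.6% and 20.6% of all genes. That normoxia arm is 1 array, assumed to vary like the arrays of the other groups and slides. Of the 52 genes that had passed, all kept their sign there and 37 still passed.

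**Figure D1:**
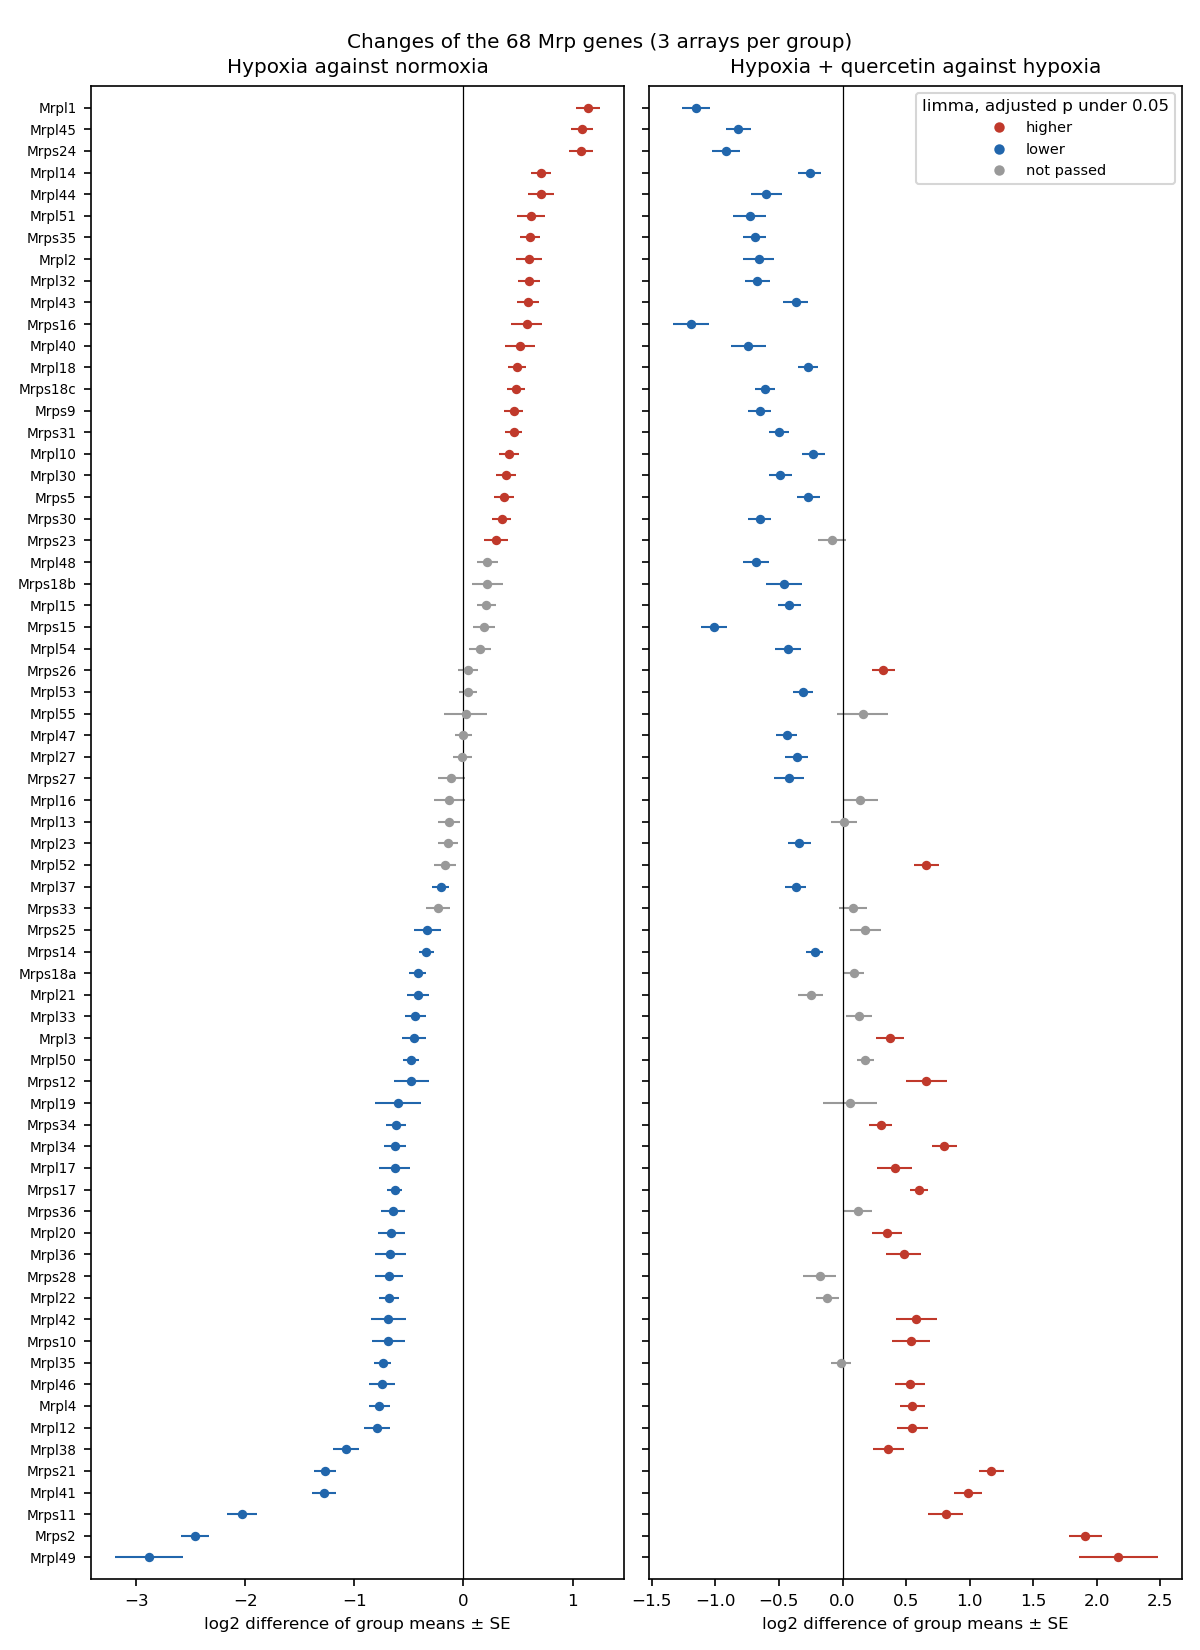
Each row is 1 of the 68 Mrp genes, ordered by its change in hypoxia. Points are log2 differences of group means with SE (3 arrays per group), red for higher, blue for lower and grey for not passed (limma, adjusted p under 0.05). The left panel runs from -2.88 for Mrpl49 to 1.14 for Mrpl1, with 31 genes lower and 21 higher, a split that spike-in scaling turned to 45 and 3. The panels share the hypoxia arrays, which by itself tilts them in opposite directions.

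Mrpl49, a large-subunit protein with no bacterial counterpart, had the largest fall. Its log2 signal was -0.03, 0.83 and -0.24 in normoxia, -2.48, -2.40 and -3.20 in hypoxia, and -0.28, -0.70 and -0.60 with quercetin. The hypoxia arrays were the lowest of all and overlapped neither other group. The change in hypoxia was -2.88 ± 0.31 (7.38-fold, adjusted p = 8.8e-05), and within the shared slide -2.46. With quercetin against hypoxia it was 2.17 ± 0.31 (adjusted p = 0.0005), and against normoxia -0.72 ± 0.31 (adjusted p = 0.094), which did not pass. A single 60-base probe on rn4 chr1:208692119-208692178 measured it.

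Mrps2, the homologue of bacterial S2 in the small subunit, read 3.07, 3.40 and 2.96 in normoxia, 0.65, 0.65 and 0.75 in hypoxia, and 2.62, 2.46 and 2.70 with quercetin. The hypoxia arrays lay below all others. The change was -2.46 ± 0.13 (5.50-fold, adjusted p = 3.6e-06) and, with quercetin against hypoxia, 1.91 ± 0.13 (adjusted p = 1.1e-05). Another probe of the same transcript, further upstream, gave -0.40 (adjusted p = 0.084) and 0.04 (adjusted p = 0.88), so the fall of Mrps2 rests on the downstream probe. The upstream probe was much dimmer, at -2.19, -1.58 and -2.25 in normoxia, though well above background on 3 of 3 arrays of each group.

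Mrps11, the homologue of S11 on the platform of the small subunit, stayed low with quercetin. It read 1.31, 1.39 and 1.26 in normoxia, -0.57, -0.49 and -1.05 in hypoxia, and 0.13, 0.08 and 0.10 with quercetin. The 3 groups did not overlap, with the quercetin arrays in between. It fell by 2.03 in hypoxia (SE 0.14, adjusted p = 1.1e-05), was 0.81 ± 0.14 higher with quercetin than in hypoxia (adjusted p = 0.0015) and remained 1.22 ± 0.14 lower than in normoxia (4.07-fold in the first comparison and 2.33-fold in the last). Mrps11 starts head to head with Mrpl46, 234 bases apart, the only pair of members found to share a start region. Mrpl46 fell by 0.75 (adjusted p = 0.001) and was 0.53 higher with quercetin than in hypoxia (adjusted p = 0.0065). The bases between the starts, on the plus strand from the side of Mrpl46 to that of Mrps11, hold none of the NRF1, ETS, YY1 and CACGTG words.
Mrpl46 to Mrps11, chr1:142117031-142117263: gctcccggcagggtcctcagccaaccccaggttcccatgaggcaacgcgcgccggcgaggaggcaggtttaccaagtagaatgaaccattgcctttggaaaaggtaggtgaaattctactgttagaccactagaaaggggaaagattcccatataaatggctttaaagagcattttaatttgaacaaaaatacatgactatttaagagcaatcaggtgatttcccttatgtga

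Mrpl41, a large-subunit protein, read 5.02, 5.15 and 4.81 in normoxia, 3.64, 3.72 and 3.79 in hypoxia, and 4.78, 4.59 and 4.77 with quercetin. Its fall of 1.28 (SE 0.11, adjusted p = 2.9e-05) was matched by its other probe, at -1.22. Mrps21, the homologue of S21, read 5.00, 5.24 and 4.89, then 3.71, 3.78 and 3.85, then 4.93, 4.94 and 4.99. In both genes the hypoxia arrays were apart from the rest, and for Mrps21 the quercetin arrays fell inside the range of normoxia. The change of Mrps21 was -1.27 ± 0.10 in hypoxia (adjusted p = 2.2e-05) and 1.17 ± 0.10 with quercetin against hypoxia (adjusted p = 4e-05).

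**Figure D2:**
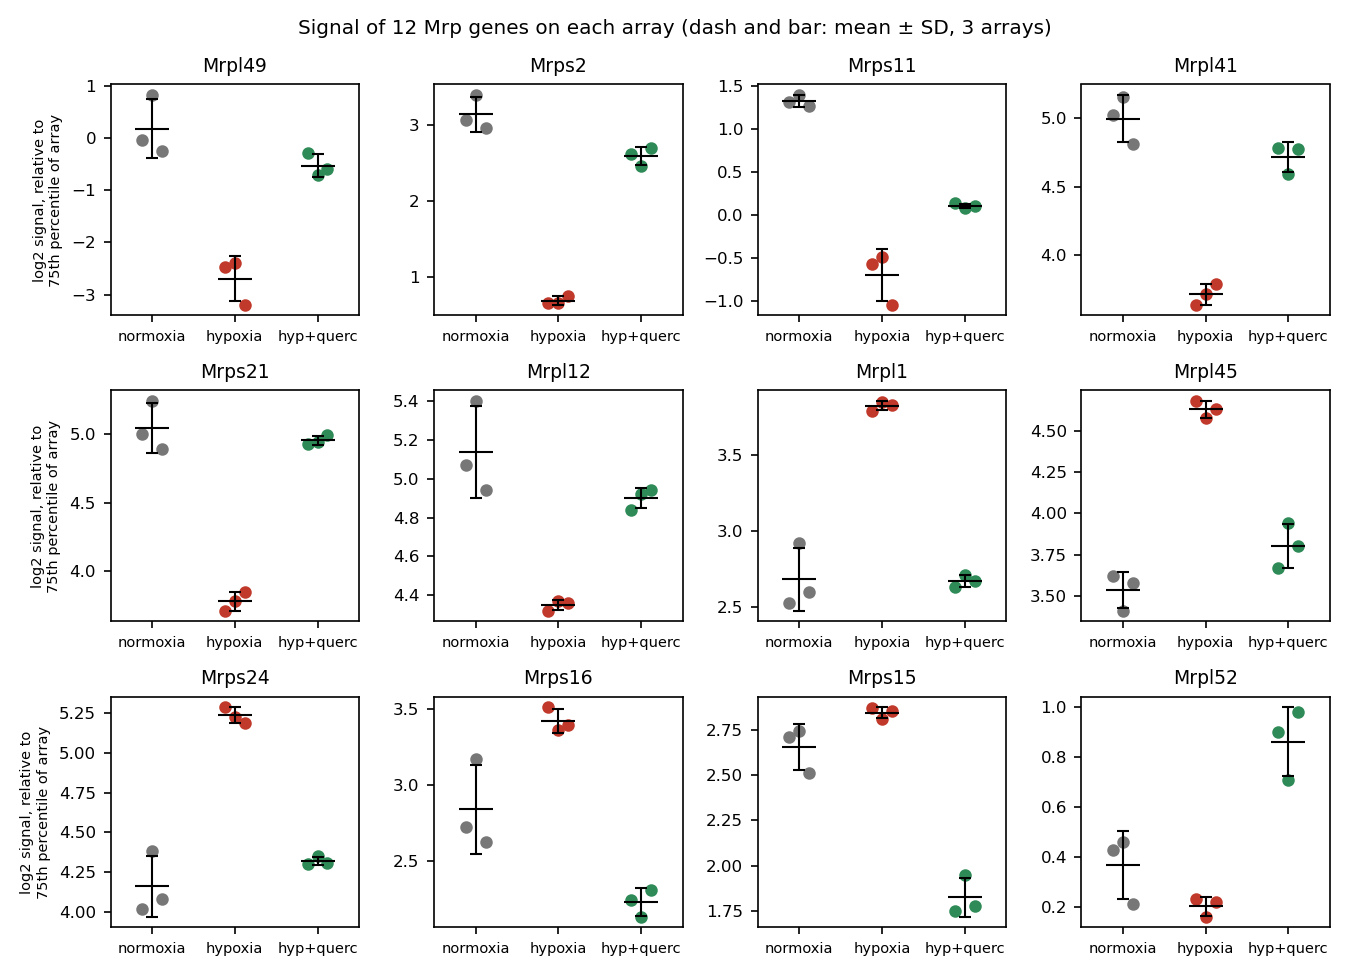
Log2 signal relative to the 75th percentile of the array (vertical axes, which differ between panels) for 12 Mrp genes, 1 point per array, with mean and SD of the 3 arrays of a group. Hypoxia is lowest for Mrpl49, Mrps2, Mrps11, Mrpl41, Mrps21 and Mrpl12 and highest for Mrpl1, Mrpl45 and Mrps24, and quercetin is highest for Mrpl52.

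The stalks of the large subunit went different ways. Mrpl1, the homologue of the L1 stalk protein, rose most: 2.53, 2.92 and 2.60 in normoxia, 3.79, 3.85 and 3.83 in hypoxia, and 2.63, 2.71 and 2.67 with quercetin. Hypoxia stood above both other groups, which overlapped. The changes were 1.14 ± 0.11 (adjusted p = 4.9e-05) and, with quercetin against hypoxia, -1.15 ± 0.11 (adjusted p = 6e-05). In the L7/L12 stalk, which recruits translation factors, Mrpl12 fell and Mrpl10, which anchors it, rose. Mrpl12 read 5.07, 5.40 and 4.94, then 4.32, 4.37 and 4.36, then 4.84, 4.92 and 4.94 (hypoxia against normoxia -0.79 ± 0.12, adjusted p = 0.00061). Mrpl10 read 0.31, 0.45 and 0.24, then 0.82, 0.75 and 0.69, then 0.56, 0.47 and 0.54 (0.42 ± 0.09, adjusted p = 0.0031, but -0.08 with spike-in scaling). Mrpl11, the third stalk protein, has no probe under this name.

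Near the exit of the peptide tunnel, Mrpl45, which ties the ribosome to the inner membrane, read 3.62, 3.41 and 3.58 in normoxia, 4.68, 4.58 and 4.63 in hypoxia, and 3.67, 3.94 and 3.80 with quercetin. It rose by 1.09 ± 0.10 (adjusted p = 4e-05) and was -0.82 ± 0.10 with quercetin against hypoxia (adjusted p = 0.00022). Mrpl22, the L22 homologue that lines the tunnel, went the other way and did not come back: 3.35, 3.29 and 3.17, then 2.60, 2.55 and 2.62, then 2.49, 2.37 and 2.57. Its change was -0.68 ± 0.09 in hypoxia (adjusted p = 0.00024) and -0.79 ± 0.09 with quercetin against normoxia (adjusted p = 0.00022). Mrpl23, the L23 homologue beside it, was -0.14 in hypoxia (adjusted p = 0.21) and fell by 0.34 with quercetin against hypoxia (adjusted p = 0.011).

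Some proteins of the central protuberance of the large subunit were put together after the values were seen, and they are not a full list. Of these, Mrpl38 and Mrpl46 fell in hypoxia, Mrpl40 rose by its brightest probe, and Mrpl48 and Mrpl52 did not pass. Mrpl38 read -2.01, -2.14 and -2.11 in normoxia, -2.99, -3.17 and -3.35 in hypoxia, and -2.96, -2.68 and -2.78 with quercetin, where hypoxia and quercetin were both below normoxia. Its changes were -1.08 ± 0.12 and -0.72 ± 0.12 against normoxia (adjusted p = 9.2e-05 and 0.0015). Mrpl52 had the largest rise over normoxia under quercetin among the genes of the rule. It read 0.43, 0.46 and 0.21 in normoxia, 0.23, 0.16 and 0.22 in hypoxia, and 0.90, 0.71 and 0.98 with quercetin, where every quercetin array was above every other. Its change was 0.49 ± 0.10 against normoxia (adjusted p = 0.0055) and 0.09 with spike-in scaling.

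In the small subunit 8 of 23 genes rose in hypoxia and 10 fell, against 13 and 20 of 44 in the large subunit. The median change was -0.11 and -0.14. With spike-in scaling the counts were 1 and 14 in the small and 2 and 30 in the large subunit, with medians of -0.62 and -0.64. Mrps24 read 4.02, 4.38 and 4.08 in normoxia, 5.29, 5.23 and 5.19 in hypoxia, and 4.30, 4.35 and 4.31 with quercetin, where hypoxia was above the rest (1.08 ± 0.11, adjusted p = 5.7e-05). Mrps12, the S12 homologue at the decoding site, read 3.84, 4.29 and 3.70, then 3.48, 3.44 and 3.45, then 4.18, 3.94 and 4.24. Its fall of 0.48 in hypoxia (SE 0.16, adjusted p = 0.025) was -0.24 against normoxia replicate 3 alone, where it did not pass (adjusted p = 0.36). Mrps7 has no probe under this name.

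The Mrps18 gene has 3 paralogues in mammals, and they differed. Mrps18a, whose protein is in the large subunit, fell by 0.42 (SE 0.08, adjusted p = 0.0027), and Mrps18c, in the small subunit, rose by 0.48 (SE 0.08, adjusted p = 0.00088), though it was -0.02 with spike-in scaling. Mrps18b was 0.22 ± 0.14 (adjusted p = 0.20). The arrays of Mrps18c read 4.23, 4.32 and 4.16, then 4.72, 4.69 and 4.76, then 4.07, 4.16 and 4.10. Those of Mrps18a read 3.39, 3.26 and 3.31, then 2.96, 2.91 and 2.84, then 2.97, 2.92 and 3.08. Hypoxia and quercetin overlapped for Mrps18a and were apart for Mrps18c.

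Genes for proteins with a bacterial counterpart and genes without one were counted apart, and their difference was not tested. Of 39 with a counterpart, 12 rose and 20 fell in hypoxia (median -0.34), and of 28 without, 9 rose and 10 fell (median 0.03). With spike-in scaling these were 2 and 27 (median -0.85) and 1 and 17 (median -0.48). Mrps36, outside the ribosome, fell by 0.65 (SE 0.11, adjusted p = 0.0013) and was -0.53 with quercetin against normoxia (adjusted p = 0.0058). The other genes that fell in hypoxia were Mrpl3, Mrpl4, Mrpl17, Mrpl19, Mrpl20, Mrpl21, Mrpl33, Mrpl34, Mrpl35, Mrpl36, Mrpl37, Mrpl42, Mrpl50, Mrps10, Mrps14, Mrps17, Mrps25, Mrps28 and Mrps34, by 0.21 (Mrpl37) to 0.77 (Mrpl4). Those that rose were Mrpl2, Mrpl14, Mrpl18, Mrpl30, Mrpl32, Mrpl40, Mrpl43, Mrpl44, Mrpl51, Mrps5, Mrps9, Mrps16, Mrps23, Mrps30, Mrps31 and Mrps35, by 0.30 (Mrps23) to 0.71 (Mrpl14 and Mrpl44). With spike-in scaling Mrpl1, Mrpl45 and Mrps24 still passed as higher, at 0.64, 0.59 and 0.57, and the other 18 did not.

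With quercetin under hypoxia, on arrays with a slide of their own, most of the genes differed from hypoxia alone, though fewer with normexp correction. Against hypoxia alone, 32 of the 68 genes fell, 21 rose and 15 did not pass. Of all genes tested 58.4% passed, 26.9% higher and 31.5% lower. Arrays did not overlap for 61 of the 68, against 71.0% of all genes, and 6 passed with at least a 2-fold change, against 20.6%. The median was -0.15, against -0.08 for all genes. Quantile normalization turned the split to 27 higher and 23 lower, against 28.4% and 27.9% of all genes. Spike-in scaling gave 22 and 21, against 29.5% and 25.7%. Normexp background correction left 10 higher and 21 lower, against 12.8% and 15.1%.

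The 3 largest falls with quercetin against hypoxia were Mrps16, Mrpl1 and Mrps15. Mrps16, the S16 homologue, read 2.72, 3.17 and 2.62 in normoxia, 3.51, 3.36 and 3.39 in hypoxia, and 2.24, 2.13 and 2.31 with quercetin, with hypoxia above and quercetin below normoxia. Its changes were 0.58 ± 0.14 in hypoxia (adjusted p = 0.0076, but 0.08 with spike-in scaling), -1.19 ± 0.14 with quercetin against hypoxia (adjusted p = 0.00021) and -0.61 ± 0.14 against normoxia (adjusted p = 0.0091). Mrps15, the S15 homologue, read 2.71, 2.74 and 2.51, then 2.87, 2.81 and 2.85, then 1.75, 1.95 and 1.78. Only its quercetin arrays were low, at -1.01 ± 0.10 against hypoxia and -0.82 ± 0.10 against normoxia (adjusted p = 6e-05 and 0.0003). Mrps24, Mrpl45 and Mrpl40 followed, at -0.92, -0.82 and -0.74, though the other probe of Mrpl40 gave 0.44 (adjusted p = 0.017). The largest rises were Mrpl49, Mrps2, Mrps21, Mrpl41, Mrps11 and Mrpl34, from 2.17 down to 0.80.

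**Figure D3:**
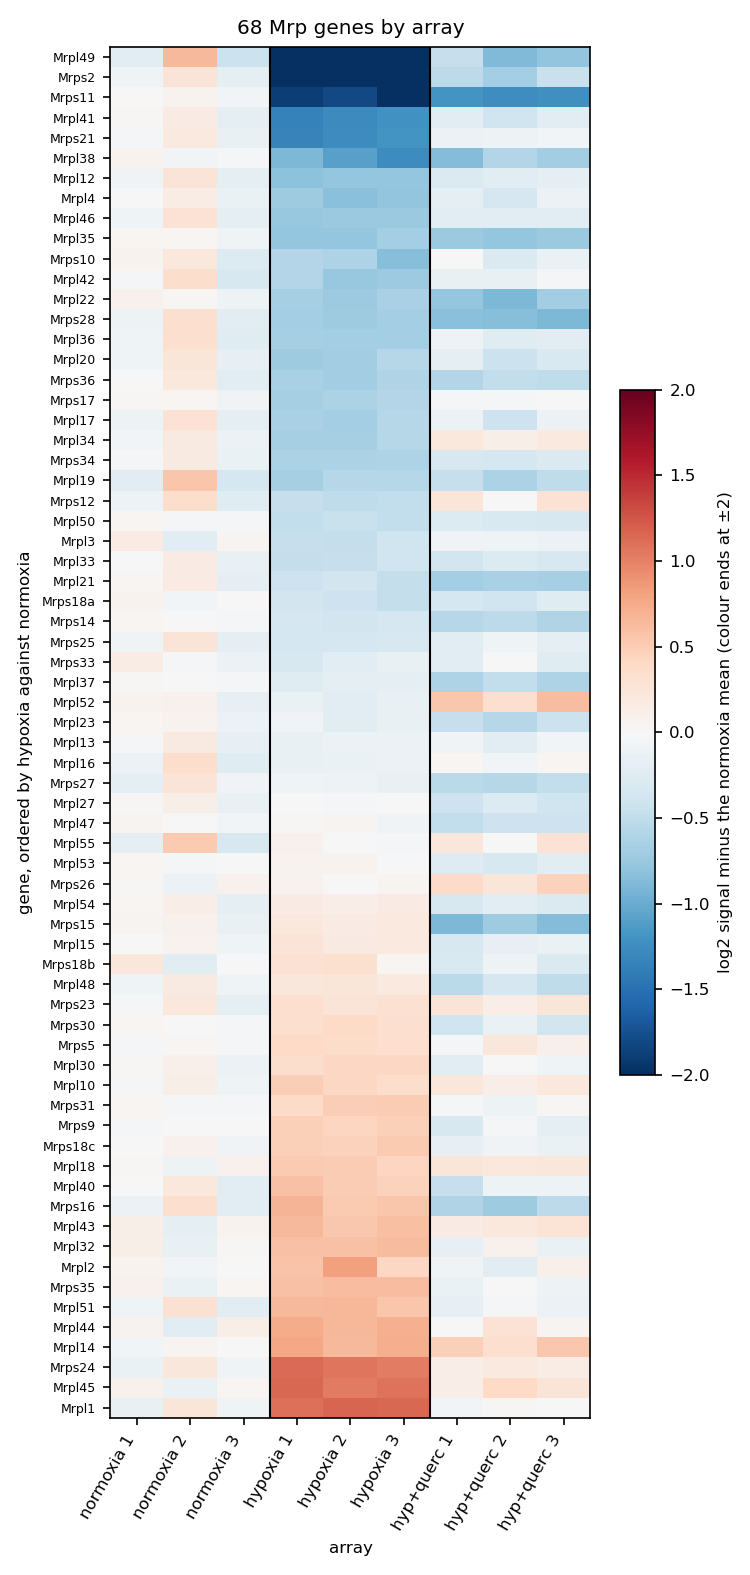
Each cell is the log2 signal of a gene (rows, 68 Mrp genes ordered by the change in hypoxia) on an array (columns, 3 per group) minus the mean of the 3 normoxia arrays, with colour ending at ±2. Hypoxia arrays are blue at the top (Mrpl49, -2.88) and red at the bottom (Mrpl1, 1.14), and the quercetin arrays lie closer to normoxia for most genes. Normoxia replicate 2 is the highest normoxia array for 47 of the 68 genes.

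Read side by side, 20 genes rose in hypoxia and fell with quercetin, and 19 fell in hypoxia and rose with quercetin. Among all genes tested, 64.2% passed in the first comparison and 58.4% in the second. The share of all genes that moved in opposite directions was not counted. These comparisons share the hypoxia arrays, so a value that is high there by error appears in both with opposite signs, and the counts are given only as a description. The 20 were Mrpl1, Mrpl2, Mrpl10, Mrpl14, Mrpl18, Mrpl30, Mrpl32, Mrpl40, Mrpl43, Mrpl44, Mrpl45, Mrpl51, Mrps5, Mrps9, Mrps16, Mrps18c, Mrps24, Mrps30, Mrps31 and Mrps35. Mrpl40 is among them by its brightest probe, while its other probe gave -0.89 in hypoxia and 0.44 with quercetin against hypoxia. The 19 were Mrpl3, Mrpl4, Mrpl12, Mrpl17, Mrpl20, Mrpl34, Mrpl36, Mrpl38, Mrpl41, Mrpl42, Mrpl46, Mrpl49, Mrps2, Mrps10, Mrps11, Mrps12, Mrps17, Mrps21 and Mrps34. Mrpl37 and Mrps14 fell in both, by 0.21 and 0.37 for Mrpl37 and by 0.34 and 0.22 for Mrps14, whose downstream probe instead rose with quercetin, by 0.86 (adjusted p = 0.00087). Mrpl52 and Mrps26 passed as higher in both comparisons with quercetin and not in hypoxia, and Mrpl13, Mrpl16, Mrpl55 and Mrps33 passed in no comparison. Mrpl15 and Mrps18b passed only with quercetin against hypoxia, as lower, and Mrps23, Mrpl19 and Mrps25 only in hypoxia.

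Against normoxia, cells under hypoxia with quercetin had 24 of the 68 genes lower, 3 higher and 41 that did not pass. Of all genes tested 44.3% passed, 23.0% higher and 21.3% lower. Arrays did not overlap for 40 of the 68, against 53.5% of all genes, and 1, Mrps11, passed with at least a 2-fold change, against 12.9%. The median change was -0.21, against 0.04 for all genes, and 54 of the 68 lay below the median of all genes. With scan day as a block, which leaves only normoxia replicate 3 to compare with under the same assumption on its spread, 2 genes were higher and 10 lower and the median was -0.09. Of all genes 12.3% and 14.0% were called there. Spike-in scaling gave 0 higher and 55 lower, against 7.63% and 44.4% of all genes. Without normoxia replicate 2, the count of higher genes went from 3 to 9.

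Besides Mrps11, Mrps15, Mrpl22 and Mrpl38, the largest falls were Mrps28 at -0.86 and Mrpl35 at -0.75. Mrps28 read 2.81, 3.24 and 2.69 in normoxia, 2.24, 2.21 and 2.24 in hypoxia, and 2.08, 2.06 and 2.01 with quercetin (SE 0.13, adjusted p = 0.0013). Its hypoxia and quercetin arrays were all below normoxia. In addition to Mrps15, 7 genes passed only by the tests that include quercetin, as lower: Mrpl23, Mrpl27, Mrpl47, Mrpl48, Mrpl53, Mrpl54 and Mrps27. The 3 higher genes were Mrpl52, Mrpl14 (0.45 ± 0.09, adjusted p = 0.0033) and Mrps26 (0.36 ± 0.09, adjusted p = 0.015), and with spike-in scaling they were 0.09, 0.05 and -0.04 and did not pass.

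Probes of the same gene did not always give the same change, which bears on the genes above that have a single probe. Of the 68 genes, 9 had probes of 1 transcript at separate places on the gene's strand, a comparison chosen after the data were seen. In 4 of the 9 the most downstream probe was lower in hypoxia by over 0.5 relative to the most upstream one, and in 0 it was higher by as much. Over all 2635 such genes these shares were 17.8% and 6.19%, and with the array of normoxia on the same slide alone 17.5% and 5.73%. With quercetin against hypoxia the shares turned to 4.78% lower and 17.3% higher.

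Mrpl35 showed the difference in all hypoxia arrays. Its used probe read 2.28, 2.29 and 2.17 in normoxia, 1.48, 1.48 and 1.56 in hypoxia, and 1.50, 1.48 and 1.51 with quercetin. Its change was -0.74 in hypoxia and -0.01 with quercetin against hypoxia (adjusted p = 0.92). Its downstream probe read 0.23, 0.45 and 0.04, then -2.49, -2.57 and -2.35, then -0.46, -0.78 and -0.64, a change of -2.71 and then 1.85. The same gene thus gave a change with quercetin by the downstream probe only. For Mrpl40 even the direction differed, at 0.52 by the used probe and -0.89 by the downstream one (adjusted p = 0.01 and 0.00044 in a fit of single probes). Mrps14 gave -0.34 and -0.37 by its upstream probes and -1.50 downstream, and Mrps2 gave the pair described above. In the other 5 genes, Mrpl17, Mrpl18, Mrpl41, Mrpl55 and Mrps27, the probes differed by at most 0.21. What sets the probes apart was not tested.

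**Figure D4:**
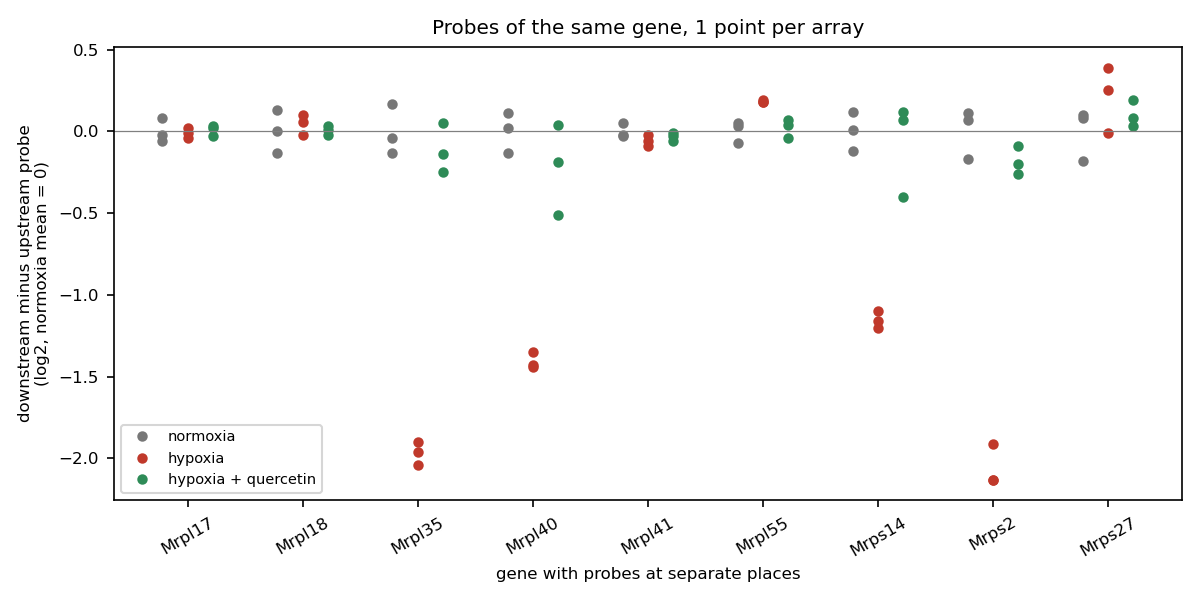
Downstream minus upstream probe on the log2 scale (vertical axis, mean of normoxia set to 0) for the 9 Mrp genes with probes at separate places, 1 point per array. The hypoxia arrays lie between -1.10 and -2.13 for Mrpl35, Mrpl40, Mrps14 and Mrps2 and between -0.09 and 0.39 for the other genes.

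Other gene groups of mitochondrial translation give a measure of how particular such a split is. Factors that assemble the mitochondrial ribosome or modify its RNA fell in hypoxia in 14 of 20 genes and rose in 1, with a median of -1.0. Ybey, a ribosomal RNA endonuclease homologue, was well above background on 0 of 3 hypoxia arrays and at least 5.13-fold lower there (adjusted p = 2.4e-06). The bound sets the normoxia mean against, per hypoxia array, the higher of the probe's own signal and the lowest signal above background. The GTPase Mtg2 fell by 1.06 (adjusted p = 1.6e-05). The ribosomal RNA methyltransferases Mrm2 and Mrm3 fell by 1.41 and 1.48 (adjusted p = 2.8e-05 and 2.9e-05). With quercetin against hypoxia 13 of the 20 rose and 3 fell, with Ybey at least 6.92-fold higher and Mtg2 at 0.63. With spike-in scaling 18 fell in hypoxia.

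Of 13 mitochondrial translation factors 5 were higher and 5 lower in hypoxia, and 2 and 8 with spike-in scaling. The elongation factor Gfm1 fell by 1.04 (adjusted p = 2.5e-05) and Mtrfr, a rescue factor, by 1.50 (adjusted p = 2e-05), while Oxa1l, the insertase that receives the nascent chain, rose by 1.11 (adjusted p = 2.7e-05). Mitochondrial aminoacyl-tRNA synthetases and the related amidotransferase gave 5 higher and 4 lower of 17 (1 and 11 with spike-in scaling), with Ears2 at 1.13 and Yars2 at -1.61. Genes of mitochondrial DNA transcription and replication gave 4 higher and 3 lower of 10 (0 and 6 with spike-in scaling), with the single-strand binding protein Ssbp1 at -1.42 (adjusted p = 3e-05). Of 9 regulators, 3 fell and 1 rose, against 7 and 0 with spike-in scaling: Myc was -1.89, Hcfc1 -0.74, Pprc1 -0.73 and Nrf1 0.56, and Yy1 and Gabpa, at 0.13 and -0.08, did not pass.

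Mitochondrial ribosomal proteins whose array names fall outside the rule gave changes in hypoxia within the range of those above. Of a list of 6, in which spike-in scaling gave 0 higher and 5 lower, Dap3 rose by 0.63, Gadd45gip1 and Ptcd3 fell by 0.74 and 0.83, and Aurkaip1, Chchd1 and Mrpl58 (named Ict1 in the files) did not pass. Mrpl57, named Mrp63 in the files, was -0.64 in hypoxia and 1.41 with quercetin against hypoxia (adjusted p = 0.0055 and 9.7e-05). With quercetin against normoxia it was 0.77 (adjusted p = 0.0034), above all genes of the rule, of which Mrpl52 was highest at 0.49. Mrps22, listed under a locus name, was -0.96 and 0.39 (adjusted p = 7.4e-05 and 0.0098).

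Ribosomal protein genes of the cytosol had a narrower spread of changes than those of the mitochondrion. Of 78 cytosolic genes, 76 were higher in hypoxia and 0 lower, with a median of 0.54 that spike-in scaling brought to 0.04 (1 higher, 1 lower) and quantile normalization to -0.01 (3 higher, 0 lower), and an interquartile range of 0.12. The interquartile range of the changes of the 68 mitochondrial genes was 1.04, and that of all genes 1.12. Subunits of the respiratory chain and ATP synthase had 16 higher and 21 lower of 74, a median of 0.02 and an interquartile range of 0.50. Spike-in scaling turned these counts to 1 and 59 (median -0.49) and quantile normalization to 2 and 41 (median -0.31). These spreads are descriptions, with no test. Against normoxia, cells with quercetin had an interquartile range of 0.40 for the 68 genes, 0.24 for the cytosolic ones and 0.74 for all genes.

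**Figure D5:**
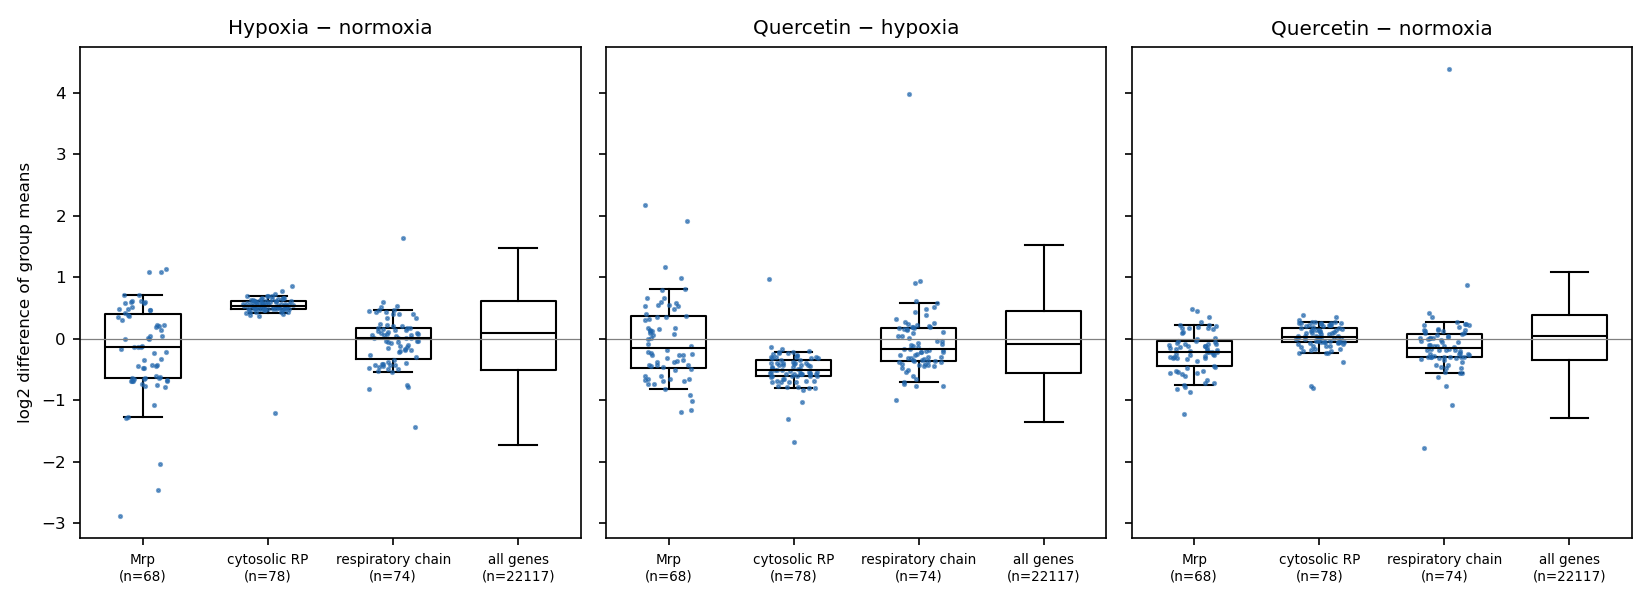
Log2 differences of group means (vertical axis) for the 68 Mrp genes, 78 cytosolic ribosomal protein genes, 74 respiratory chain and ATP synthase genes and all 22117 genes, in 3 comparisons. Points are genes of the 3 lists, boxes span the middle 50% with the median, and whiskers reach the 5th and 95th percentiles. In hypoxia the cytosolic genes sit in a narrow band near 0.54 (0.04 with spike-in scaling, -0.01 with quantile normalization), while the Mrp genes span -2.88 to 1.14.

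The promoter words can be set beside the calls in hypoxia. The YY1 word was in 2 of 18 windows of genes that rose, 8 of 24 of genes that fell and 3 of 13 of genes that did not pass. The NRF1 word was in 3, 2 and 1 of these, and the ETS word in 1, 1 and 6. The core letters of the hypoxia response element, ACGTG and GCGTG, were in 25.5% and 45.5% of the 55 windows, against 25.4% and 48.9% of windows of genes tested, and may overlap with CACGTG, which was in 10.9% against 9.41%. The word GGGCGG, read by Sp1, was in 52.7% against 61.1%. These are counts of letters in 1 window per gene and were not tested.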

How the data were processed

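Total RNA of 9 samples, 3 per group, was measured on 1-colour Agilent rat arrays. Per the file headers, spot intensities were extracted with Agilent Feature Extraction 10.7.3.1, background already subtracted, with probe positions on rn4. The labels' protocols name a microRNA labelling kit, while the file headers name a gene expression protocol, so the labelling stays uncertain. The deposited value table holds log2 values with the same median, 5.71, in every column; no source used here says how the authors made it, and it served as an alternative.

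Outlier spots and 1639 control spots were left out, spots of a probe were averaged, and the log2 intensity minus the array's 75th percentile was used. Probes were kept if, in 1 group or more, each array had them well above background, 26665 of 41012 (65.0%), and each gene was taken from its brightest probe. Names came from RefSeq tables of GRCr8 where a probe could be matched, and 19416 of the 41012 probes kept their name from the scanner output. The 22117 genes tested thus include entries without a gene symbol. All arrays entered 1 fit of group means in limma 3.58.1 (R 4.3.3), two-sided, Benjamini-Hochberg adjusted over 22117 genes. The fit was tested on simulated data with few changed genes and no slide or scan-day effects, so that test does not cover such effects. The number of arrays limits the precision.

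The members and lists were chosen with earlier results of these data known. Named genes were the 6 largest increases and decreases per comparison among passing genes without overlap, genes passing in opposite directions, genes whose probes differed by over 0.5, a fixed set by role, and up to 4 genes per other list. Alternatives were normexp (offset 50), quantile, median and spike-in scaling (6 probes), the value table, other filters, single probes, 2 groups only, replicate, slide and scan-day blocks, and each array left out.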

Additional observations from a re-analysis of the deposited data

How the results depend on the processing

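For hypoxia against normoxia, spike-in scaling gave 3 higher and 45 lower genes with a median of -0.64, while quantile normalization and the deposited value table gave a median of -0.28, single probes -0.26, and the slide block 16 lower with a median of -0.03. For quercetin against hypoxia, normexp gave 10 higher and 21 lower, spike-in scaling 21 lower with a median of -0.05, quantile normalization and the value table a median of 0.01, and single probes 0.00. For quercetin against normoxia, normexp gave 1 higher and 13 lower, quantile normalization, the value table and the filter on all 9 arrays 5 higher, spike-in scaling 0 higher and 55 lower with a median of -0.61, and the scan-day block 10 lower with a median of -0.09. The cause was not tested. Leaving out 1 array gave, for hypoxia, 20 to 24 higher, 27 to 31 lower and medians of -0.22 to -0.07. For quercetin against hypoxia it gave 14 to 22, 26 to 34 and -0.16 to -0.13, and against normoxia 2 to 9, 19 to 28 and -0.28 to -0.14, with 9 higher without normoxia replicate 2.

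Of single genes, a change of sign counted where the value passed before or after. With spike-in scaling it was seen in hypoxia for Mrpl10 (-0.08), Mrpl15 (-0.29), Mrpl18 (-0.01), Mrpl30 (-0.11), Mrpl48 (-0.28), Mrpl53 (-0.46), Mrpl54 (-0.35), Mrps5 (-0.14), Mrps9 (-0.04), Mrps15 (-0.31), Mrps18c (-0.02), Mrps23 (-0.21), Mrps26 (-0.46), Mrps30 (-0.15) and Mrps31 (-0.04), and with quercetin against normoxia for Mrpl44 (-0.29), Mrps5 (-0.30) and Mrps26 (-0.04). Quantile normalization and the value table each gave Mrpl53 -0.22 in hypoxia. No gene's call reversed to a call of the opposite sign, but between alternatives Mrpl15, Mrpl48 and Mrps15, which had not passed in hypoxia, passed as lower with spike-in scaling and as higher elsewhere. Mrpl15 did so with the filter on all 9 arrays (and without normoxia replicate 2), Mrpl48 without normoxia replicate 2 and Mrps15 with the slide block (0.34). Probes of Mrpl40 in hypoxia and of Mrps14 with quercetin against hypoxia also passed in opposite signs. The replicate block gave 20 higher and 28 lower in hypoxia, 17 and 27 with quercetin against hypoxia, and 3 and 19 against normoxia. Same-numbered arrays correlated in their deviations at -0.27 to 0.02. Deviations from a mean of 3 arrays on unlike slides cannot show whether same-numbered arrays belong together. With 3 arrays per group, probes near background are the least certain.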

Other observations

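Several members start head to head with another gene, and some of the neighbours did not share the change in hypoxia. How often this holds for other head-to-head pairs was not counted. Fau, which encodes a cytosolic ribosomal protein, starts 186 bases from Mrpl49 and was 0.69 (adjusted p = 0.00062) where Mrpl49 was -2.88. Ncapd2, a condensin subunit 50 bases from Mrpl51, was -0.95 (adjusted p = 4.7e-05) where Mrpl51 was 0.62. Helq, a helicase 72 bases from Mrps18c, was -0.87 (adjusted p = 0.00045) where Mrps18c was 0.48. Hira, a histone chaperone 186 bases from Mrpl40, was -0.49 (adjusted p = 0.0082) where Mrpl40 was 0.52 by its used probe. Mitd1, 194 bases from Mrpl30, was -0.62 (adjusted p = 0.0026) where Mrpl30 was 0.39. Eme1, a DNA repair endonuclease subunit 44 bases from Mrpl27, was -1.90 (adjusted p = 0.00047, above background on 1 of 3 hypoxia arrays) where Mrpl27 was -0.01. With spike-in scaling the directions of Mrpl30 and Mrps18c turn, and Mrpl51 and Mrpl40, at 0.12 and 0.02, did not pass. The values of the neighbours with that scaling are not given here. Ndufb5, a subunit of respiratory complex I 244 bases from Mrpl47, was -0.03 in hypoxia (adjusted p = 0.79) and -0.44 with quercetin against hypoxia (adjusted p = 0.0032), and Mrpl47 was 0.00 and -0.44.

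Probes on the strand opposite to the gene's brightest probe were present for Mrpl34, Mrps21 and Mrps33. This rule cannot flag a gene with a single probe. The single probes of Mrpl2 and Mrps17 lay on the plus strand of rn4, while RefSeq on GRCr8 has these genes on the minus strand. Whether the assemblies differ in orientation there was not tested. The pair for Mrpl34 shares 58 of 60 bases as reverse complements on rn4 chromosome 16, shown here by 30 of them.
Mrpl34, brightest probe: cgtccgtttttgtaaatatatttgaaggta
Mrpl34, opposite probe: taccttcaaatatatttacaaaaacggacg
The opposite probe was well above background on 0 of 3 hypoxia arrays and was at least 1.80-fold higher in normoxia, the normoxia mean set against, per hypoxia array, the higher of the lowest signal above background and the probe's own signal. The brightest probe fell by 0.63. The opposite probe for Mrps21 was at least 1.83-fold higher in normoxia than in hypoxia, by the same rule, with 2 of 3 normoxia arrays above background. The opposite probe for Mrps33 was -0.28 in hypoxia (adjusted p = 0.22) and 0.72 with quercetin against hypoxia (adjusted p = 0.011), where the gene's brightest probe was 0.08.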
